A study of Drosophila melanogaster with 4 samples.

Results

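The nuclear genes for subunits of the mitochondrial respiratory chain and ATP synthase were followed in Drosophila melanogaster S2 cells during treatment with radicicol, an inhibitor of the chaperone Hsp90. Genes were taken by their FlyBase symbol: those that start with ND-, UQCR-, ATPsyn, or COX and a digit, together with SdhA, SdhB, SdhC and SdhD. Genes of the mitochondrial genome, whose symbols start with mt:, were not taken. Of 80 such gene IDs in the files, 63 averaged at least 20 counts over the 4 libraries and were measured. A further 4 genes that match the rule, ND-30, COX8, COX7CL and UQCR-6.4L, have current IDs that are not in the files. They are in none of the counts below. The whole series held 14869 gene IDs, of which 7883 were measured. The 63 genes comprised 32 of the 39 genes of complex I (NADH dehydrogenase), 4 of 4 of complex II (succinate dehydrogenase), 6 of 8 of complex III (the cytochrome bc1 complex), 8 of 14 of complex IV (cytochrome c oxidase) and 13 of 15 of complex V (ATP synthase). The symbol rule and the minimum count used no change in level, but the genes were chosen with earlier results of these data known.

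The respiratory chain passes electrons from NADH and succinate through complexes I, II, III and IV to oxygen and pumps protons across the inner mitochondrial membrane, and ATP synthase uses the proton gradient to make ATP. Complexes I, III, IV and V are built from nuclear and mitochondrial gene products together, and complex II from nuclear gene products alone, so subunits must be supplied by both genomes in matched amounts. Most of the nuclear subunits are small accessory proteins, while a few larger ones carry the flavin, the iron-sulphur clusters or the catalytic sites.

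S2 cells, a line of embryonic origin, were grown at 25 °C in Schneider medium and received either the solvent DMSO or radicicol in DMSO at 40 µM, and the study asked how the transcript response to Hsp90 inhibition develops over time. There were 4 libraries of polyadenylated RNA, 1 for each condition: DMSO, which the labels place at 0 min, and radicicol for 15, 30 and 60 min. All cells were of the same line, and no label says how long the DMSO cells were exposed. Each condition has 1 library, so there is no replicate error, and the p-values measure how far the 4 libraries scatter around a fitted line.

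Gene counts summed to between 19153476 in DMSO and 31028233 at 60 min. In the DMSO library 44.1% of reads were not aligned, against 17.8 to 21.5% in the radicicol libraries, and the part of this difference in the comparisons with DMSO was not tested, so values between radicicol libraries are given as well. S2 cells have features of haemocytes, and all 7 haemocyte markers examined were measured in every library, with a summed level of 4529 to 6652 CPM (counts after scaling by the effective library size). The number of cells and the RNA per cell cannot be told apart in bulk libraries.

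The respiratory chain genes were lower as a group in every radicicol library. Together they had 17093 CPM in DMSO (exact 95% counting interval 17033 to 17153), 12858 at 15 min, 12822 at 30 min and 9308 at 60 min (9274 to 9342). The sum was thus lower within 15 min, level between 15 and 30 min, and lower again at 60 min. On the log2 scale the summed fold against DMSO was -0.41 at 15 min, -0.41 at 30 min and -0.88 at 60 min. The genes took 1.62% of all gene counts in DMSO and 0.913% at 60 min.

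Single genes were called lower or higher than DMSO where the log2 fold was at least 1 in size with its counting interval on that side of 0, which is a rule of size and not a test. At 60 min 38 of the 63 genes were lower by this rule, where 12.6% of all measured genes were, and none was higher, where 19.7% of all measured genes were. By at least 0.5 on the log2 scale 56 were lower (30.7% of all measured genes) and 1 was higher (31.7%). Their median log2 fold was -1.05, against -0.02 over all measured genes. At 15 min none of the 63 was lower (1.23% of all measured genes) or higher (1.4%), but 25 were lower by at least 0.5 on the log2 scale, where 5.49% of all measured genes were. At 30 min none was past the rule in either direction (1.32% of all measured genes were lower and 3.35% higher), and 28 were lower by at least 0.5 (8.82%). The median log2 fold was -0.46 at 15 min and -0.49 at 30 min, against -0.00 and 0.00 over all measured genes. Of any size, 58, 55 and 58 genes had an interval wholly below 0 at 15, 30 and 60 min, where 31.5, 34.9 and 42.9% of all measured genes did. In the same order 1, 1 and 3 genes had one wholly above 0, where 31.4, 34.2 and 42.0% of all did.

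A straight line over minutes was fitted to the 4 libraries with edgeR's quasi-likelihood test, and the threshold was a p below 0.05 after Benjamini-Hochberg adjustment across the 7883 measured genes. By this test 56 of the 63 genes fell, where 33.8% of all measured genes fell, and 1 rose, where 34.1% of all measured genes rose. The median slope of the 63 genes was -0.99 on the log2 scale per 60 min. The 6 genes that passed in neither direction included ND-75, SdhA, ATPsynbeta, COX5BL and ATPsynepsilonL, and the gene that rose was ATPsynbetaL. Without the 60 min library the number that fell was 32 (7.41% of all measured genes fell) and none rose (11.5% rose); over the 3 radicicol libraries alone it was 51 (25.0%), and 1 rose (28.8%). DESeq2 gave 55 genes that fell (30.4%) and 1 that rose (32.3%).

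**Figure D1:**
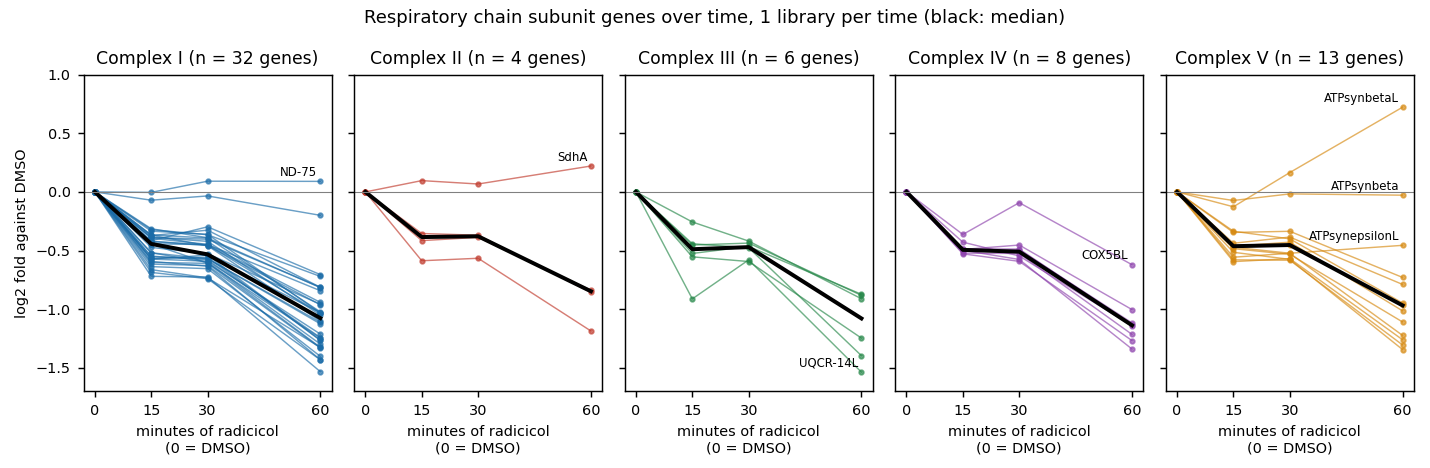
Log2 fold against DMSO (vertical axis) over minutes of radicicol (horizontal axis) for each of the 63 genes, 1 panel per complex, with 1 library per time and the median in black. Nearly all lines drop to 15 min, run level to 30 min and drop again to 60 min, and ND-75, SdhA, ATPsynbeta and ATPsynbetaL stay near or above 0.

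The time course had the same shape in most genes. Of the 63 genes, 62 had a lower level at 15 min than in DMSO, 41 were lower at 30 than at 15 min, and 60 were lower at 60 than at 30 min. The DMSO library held the highest level of 60 genes and the 60 min library the lowest level of 58. The shares of all measured genes with these orders were not counted. Between 15 and 30 min the median log2 fold was -0.02, against 0.00 over all measured genes. No gene was past the rule of size (0.444% of all measured genes were lower and 0.799% higher). For this step 12 genes had an interval wholly below 0 and 5 wholly above, where 1184 and 1656 of the 7883 measured genes did. Between 30 and 60 min the median was -0.59, none was past the rule (1.03% of all measured genes were lower and 9.81% higher), and 40 genes were lower by at least 0.5, where 15.4% of all measured genes were. The step from 30 to 60 min was larger than that from DMSO to 15 min in 52 of the 63 genes. By the labels the former spans 30 min and the latter 15 min, so this does not compare rates. The share of all measured genes with a larger later step was not counted. From 15 to 60 min, a comparison in which the DMSO library has no part, the median was -0.61 and 56 genes had an interval wholly below 0, where 41.2% of all measured genes did. By the rule of size none was lower (2.9% of all measured genes) or higher (13.0%).

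Complex I oxidises NADH and reduces ubiquinone. Its 32 genes together had 4678 CPM in DMSO, 3481 at 15 min, 3430 at 30 min and 2424 at 60 min, a log2 fold of -0.95 (-0.96 to -0.93) at 60 min. By the slope test 30 of the 32 fell and none rose, and 21 were lower at 60 min by the rule of size. All 26 accessory genes fell, with a median log2 fold of -1.12 at 60 min. Of the 6 measured genes for core subunits, those with counterparts in the bacterial enzyme, 4 fell, with a median of -0.77. The nuclear core gene ND-30 is missing here because its current ID is not in the files. Whether core and accessory genes differ was not tested.

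The accessory gene with the largest decrease was ND-B14.5A, the counterpart of mammalian NDUFA7. It had 78.4 CPM in DMSO, 47.6 at 15 min, 47.4 at 30 min and 27.1 at 60 min, a log2 fold of -1.53 (-1.66 to -1.41) at 60 min (slope adjusted p = 0.00138, edgeR). Its 60 min library was the lowest and its DMSO library the highest, with the other two nearly equal. ND-B12, the counterpart of NDUFB3 in the membrane arm, had 134.9, 83.8, 80.8 and 50.03 CPM in the order DMSO, 15, 30 and 60 min and a log2 fold of -1.43 (-1.52 to -1.34). ND-B14.7, the counterpart of the membrane subunit NDUFA11, had 156.1, 103.5, 100.6 and 58.0 CPM in the same order and also a log2 fold of -1.43 (-1.52 to -1.34). Both fell and shared the plateau between 15 and 30 min.

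Among further accessory genes, ND-B14, the counterpart of NDUFA6 of the matrix arm, had a log2 fold of -1.40 (-1.51 to -1.29) at 60 min. ND-B17, ND-B18 and ND-B14.5B, whose mammalian counterparts NDUFB6, NDUFB7 and NDUFC2 lie in the membrane arm, had -1.33, -1.32 and -1.32. ND-MWFE, the counterpart of NDUFA1, a small subunit needed for assembly in mammals, had the lowest slope p of all 63 genes, with 54.1 CPM in DMSO, 39.8 at 15 min, 35.5 at 30 min and 22.8 at 60 min (slope -1.20 per 60 min, adjusted p = 0.000663, edgeR). The least decreased accessory gene was ND-18, the counterpart of NDUFS4, with 41.8 CPM in DMSO, 31.3 at 15 min, 34.0 at 30 min and 25.6 at 60 min. Its log2 fold at 60 min was -0.70 (-0.85 to -0.56), and it fell (slope adjusted p = 0.0141, edgeR), but not without the 60 min or without the DMSO library. ND-ACP, the mitochondrial acyl carrier protein that is also a subunit of complex I, was the most abundant complex I gene per exon length and had a log2 fold of -0.81 (-0.86 to -0.76).

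The core subunits of the arm that protrudes into the matrix differed among themselves. ND-75, the counterpart of NDUFS1, which holds iron-sulphur clusters, had 141.4 CPM in DMSO, 141.0 at 15 min, 150.7 at 30 min and 150.5 at 60 min. Its 4 libraries lay close together, and its slope did not pass (0.10 per 60 min, adjusted p = 0.368, edgeR). In contrast, ND-24 (NDUFV2), which works beside the flavin site, fell from 147.0 CPM in DMSO through 100.6 and 98.5 to 62.2 at 60 min, a log2 fold of -1.24 (-1.33 to -1.15). ND-51 (NDUFV1), which binds NADH and the flavin, and the cluster-binding subunits ND-20 (NDUFS7) and ND-23 (NDUFS8) fell as well, with log2 folds of -0.72, -0.81 and -0.94 at 60 min. Of the 6 core genes ND-24 alone was past the rule of size at 60 min.

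Complex II feeds electrons from succinate into the chain and is also an enzyme of the TCA cycle. Its 4 genes split: SdhB, SdhC and SdhD fell, and SdhA did not. SdhA, the subunit that carries the flavin and oxidises succinate, had 117.2 CPM in DMSO, 125.3 at 15 min, 122.8 at 30 min and 136.5 at 60 min, with a log2 fold of 0.22 (0.14 to 0.30) and a slope adjusted p of 0.112 (edgeR). DMSO held its lowest value and the 60 min library its highest. SdhB, the iron-sulphur subunit, had 208.1, 156.1, 159.1 and 116.5 CPM in the same order and a log2 fold of -0.84 (-0.90 to -0.77). SdhC, one of the membrane anchors, had 134.7, 105.3, 104.3 and 74.4 CPM and a log2 fold of -0.86 (-0.94 to -0.77). SdhD, the other anchor, had 57.0, 38.0, 38.5 and 25.1 CPM and a log2 fold of -1.18 (-1.32 to -1.05). For each of the latter 3 genes DMSO held the highest and 60 min the lowest value.

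Complex III passes electrons from ubiquinol to cytochrome c. All 6 measured genes fell, and 3 were lower at 60 min by the rule of size, with a median log2 fold of -1.08. The genes for the 2 large core proteins moved alike: UQCR-C1 had 486.5 CPM in DMSO, 355.5 at 15 min, 359.6 at 30 min and 264.1 at 60 min. UQCR-C2 had 306.3, 213.0, 221.9 and 167.3 CPM. Their log2 folds at 60 min were -0.88 (-0.93 to -0.84) and -0.87 (-0.93 to -0.82). Of the small subunits, UQCR-6.4 had 121.4, 89.4, 87.3 and 46.2 CPM, UQCR-Q had 239.6, 163.3, 158.9 and 101.1 CPM, and UQCR-11, the hinge protein, had 153.4, 128.5, 114.7 and 81.6 CPM. Their log2 folds at 60 min were -1.40, -1.25 and -0.91, so the 2 genes with exon lengths under 1 kb had the larger decreases. UQCR-14L, a paralog with 26, 23, 30 and 15 counts in the order of the libraries, had the lowest point value of all 63 genes, -1.54, with the wide interval of -2.56 to -0.57 (slope adjusted p = 0.0483, edgeR).

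Complex IV reduces oxygen. Its catalytic subunits are mitochondrially encoded, and the nuclear genes supply the structural and regulatory subunits around them. Its 8 measured genes had the largest decrease of the 5 complexes by summed level, from 2598 CPM in DMSO through 1838 and 1811 to 1162 at 60 min, a log2 fold of -1.16 (-1.18 to -1.14). The median log2 fold of these genes was -1.14, and -0.27 with the relation to exon length removed. On those terms complexes I, II, III and V had medians of -0.34, -0.16, -0.53 and -0.36, so complex IV was not the lowest. By the slope test 7 of the 8 genes of complex IV fell, and 7 were lower at 60 min by the rule of size, both without that removal. COX5A, a subunit on the matrix side, had 523.2 CPM in DMSO, 362.9 at 15 min, 347.2 at 30 min and 217.4 at 60 min, a log2 fold of -1.27 (-1.31 to -1.22). COX4, an early partner of the catalytic core, had 596.7, 421.6, 423.9 and 275.3 CPM and a log2 fold of -1.12 (-1.16 to -1.07). Both had their lowest level at 60 min. COX7C had the lowest fold of the complex, -1.34 (-1.41 to -1.27), followed by COX5A, and COX7A had -1.21. COX7B had -1.14, COX5B, which binds zinc, -1.13, and COX6B, which lies on the side of the intermembrane space, -1.0 (-1.05 to -0.95). The exception was COX5BL, a paralog of COX5B with 34, 44, 55 and 37 counts, whose log2 fold of -0.62 had an interval across 0 (-1.33 to 0.10; slope adjusted p = 0.223, edgeR).

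ATP synthase consists of a catalytic head in the matrix, a rotor of a central stalk and a membrane ring, and a peripheral stalk that holds the head still. Of its 13 measured genes 10 fell, 1 rose and 6 were lower at 60 min by the rule of size, and the sum was 7990 CPM in DMSO and 4709 at 60 min, a log2 fold of -0.76 (-0.77 to -0.75). ATPsynCF6 and ATPsynO of the peripheral stalk had the lowest folds among the 13 genes. ATPsynCF6 had 457.9 CPM in DMSO, 320.6 at 15 min, 307.5 at 30 min and 180.5 at 60 min, a log2 fold of -1.34 (-1.39 to -1.29). ATPsynO, the subunit that gives oligomycin sensitivity, had 492.9, 330.0, 329.2 and 199.6 CPM and a log2 fold of -1.30 (-1.35 to -1.26). ATPsynB and ATPsynD, the other 2 stalk genes, had -1.22 and -1.11. All 4 fell and were highest in DMSO.

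Of the rotor genes, ATPsynC, the subunit of the membrane ring, had 2490.5 CPM in DMSO, 1960.4 at 15 min, 1973.9 at 30 min and 1503.2 at 60 min, a log2 fold of -0.73 (-0.75 to -0.71). It fell (slope adjusted p = 0.00946, edgeR), but not without the DMSO or without the 60 min library. ATPsyngamma, the shaft, had 1563.4, 1138.9, 1142.5 and 799.9 CPM and a log2 fold of -0.97 (-0.99 to -0.94), and ATPsyndelta of the central stalk had -0.79 (-0.86 to -0.72). The genes for the small membrane subunits ATPsynE, ATPsynF and ATPsynG, of which E and G take part in pairing of the enzymes, had -1.26, -1.01 and -0.95.

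The genes for the catalytic head changed little. ATPsynbeta, the catalytic subunit, had 1169.8 CPM in DMSO, 1112.0 at 15 min, 1156.3 at 30 min and 1147.5 at 60 min. The 60 min level was close to that in DMSO (log2 fold -0.03, -0.05 to -0.00; slope adjusted p = 0.973, edgeR). The other subunit of the head, alpha, is encoded by blw, whose symbol lies outside the rule. It had 863.6, 845.1, 861.5 and 867.8 CPM, a log2 fold of 0.01 (-0.02 to 0.04), and -0.01 with the relation to exon length removed. ATPsynbeta and blw have exon lengths between 2.04 and 3.34 kb, where the median over all measured genes was 0.19. ATPsynbetaL, a paralog of the catalytic subunit, had 13.9, 12.7, 15.5 and 22.8 CPM and was the only one of the 63 genes that rose, with a log2 fold of 0.72 (0.51 to 0.94) at 60 min (slope adjusted p = 0.0092, edgeR). Its DMSO, 15 and 30 min libraries lay close together, and without the 60 min library its slope did not pass. ATPsynepsilonL, a paralog of the epsilon subunit with 50 to 61 counts per library, had a log2 fold of -0.46 (-1.02 to 0.11).

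**Figure D2:**
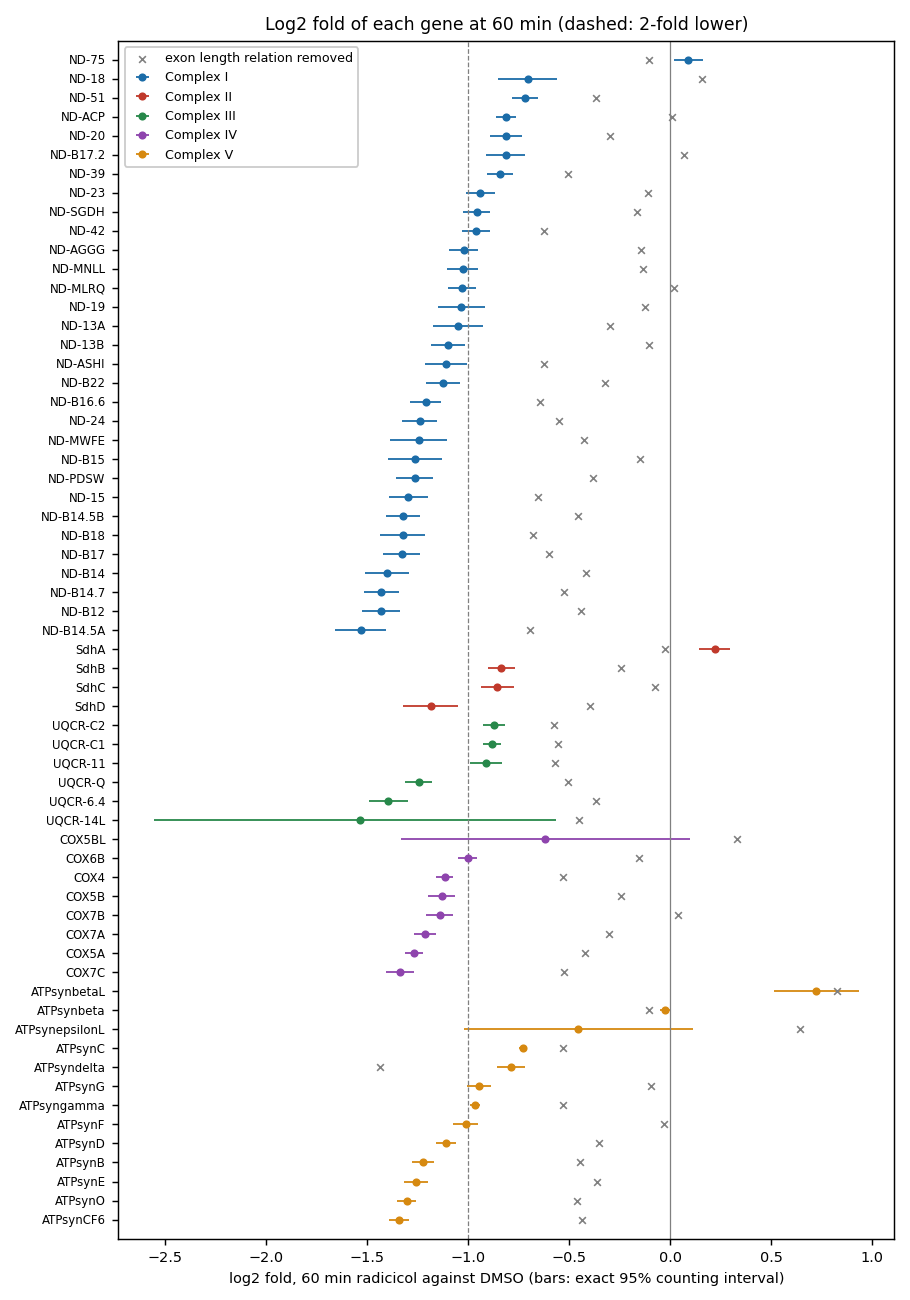
Log2 fold at 60 min against DMSO (horizontal axis) of 62 of the 63 genes (vertical axis, ordered within Complexes I to V), with exact 95% counting intervals as bars and, as grey crosses, the fold with the relation to exon length removed. 38 points lie left of the dashed line at -1, and 1 cross does (ATPsyndelta, -1.44).

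The fold changes of these genes went with exon length, as those of all genes in these libraries did. Across the 7219 measured genes with an exon length the Spearman rank correlation of the 60 min log2 fold with exon length was 0.69, with shorter genes lower, and across the 63 respiratory chain genes it was 0.48. These are correlations over genes that share the same libraries. The respiratory chain genes were short, with a median exon length of 0.853 kb against 2.04 kb, and 41 of the 63 (65.1%) were under 1 kb, against 14.4% of all measured genes.

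When the smooth relation of fold to exon length over all genes was removed, 1 gene was lower at 60 min by at least 1 on the log2 scale (ATPsyndelta, -1.44), where 4.49% of all measured genes with a length were, none was higher (9.28%), and the median log2 fold of the 63 genes was -0.37. By at least 0.5, 19 genes were lower, where 17.2% of all were. In the slope test on the same terms 38 genes fell, where 26.6% of all did, and 1 rose (26.9%), with a median slope of -0.32 per 60 min. By complex, 19 of 32 genes of complex I, 1 of 4 of complex II, 5 of 6 of complex III, 5 of 8 of complex IV and 8 of 13 of complex V fell. SdhD was the gene of complex II. After the removal the 60 min fold had a rank correlation with exon length of -0.01 over all measured genes with a length. Across the 63 genes it was -0.37, so the longer of them tended to be left lower. What relates fold to length in these libraries was not tested.

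Genes of like length give the same comparison without a fitted curve. Among the measured genes with an exon length of at most 1.28 kb, which is the shortest of 4 equal groups, the median log2 fold of 1803 genes was -0.82 at 60 min, and 631 were lower by the rule of size. The 47 respiratory chain genes in this group had a median of -1.18, and 37 of them were lower. By the slope test 1283 of the 1803 genes (71.2%) and 45 of the 47 fell. In the next group, up to 2.04 kb, the 1806 genes had a median of -0.33 and the 11 respiratory chain genes a median of -0.87. The group from 2.04 to 3.34 kb held ATPsynbeta, ATPsynbetaL, SdhA and ND-75, 4 of the 7 genes that did not fall, with a median of 0.16 against 0.19 for the 1805 genes of that length.

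**Figure D3:**
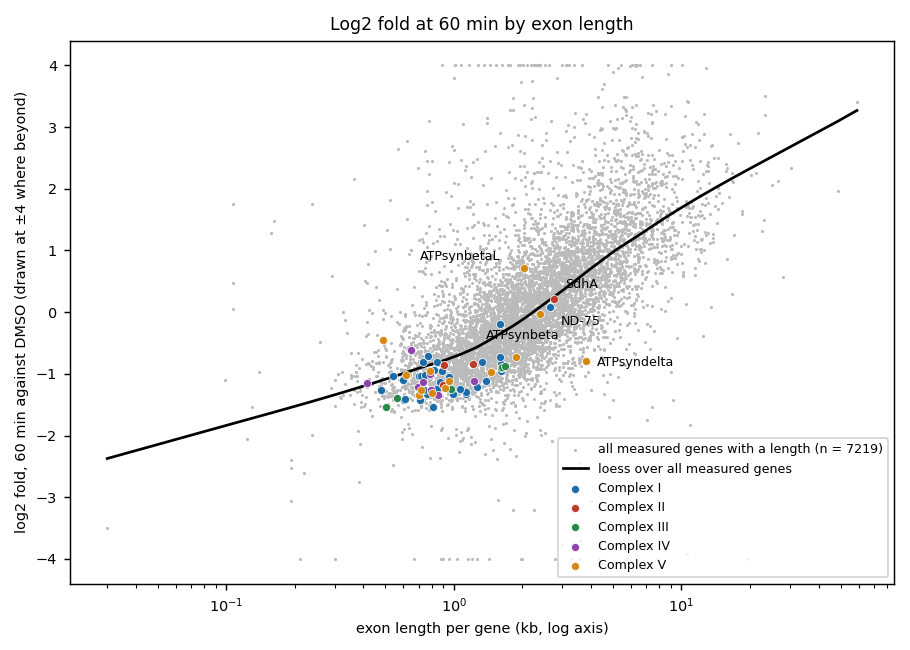
Log2 fold at 60 min against DMSO (vertical axis, drawn at the limits of ±4 where beyond) by exon length per gene in kb (horizontal log axis) for 7219 measured genes in grey, the smooth curve over them in black, and the 63 genes coloured by complex. Most coloured points lie at the short end and below the curve, ATPsyndelta lies furthest below it, and ATPsynbetaL lies above it.

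Exon lengths join all isoforms of an annotation later than that of the counting. ATPsyndelta had the largest union of exons of the 63 genes, 3.82 kb, of which 35.6% was overlapped by CG2962, and with coding length used instead its corrected fold at 60 min was -0.08 and no gene was lower by at least 1. With coding length 43 genes fell (31.8% of all with a coding length) and 1 rose (29.9%). In all, 13 of the 63 genes were overlapped by exons of another gene over more than 10% of their length, among them ND-MNLL and COX5BL over their whole length, and the sources used here do not give the strand setting of the counting. Without these 13 genes, 44 of 50 fell and 28 were lower at 60 min by the rule of size.

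Ratios of subunit genes within a library do not depend on library size. Levels per exon length still hold the relation of fold to exon length, and no ratio was taken with it removed. At 60 min the median log2 fold of all measured genes was 0.19 for exon lengths from 2.04 to 3.34 kb, the group of SdhA, ATPsynbeta and ND-75. It was -0.82 for lengths up to 1.28 kb. The part of this relation in the changes below was not tested. The pairs below were chosen after the values were seen, levels are per exon length, and intervals are 95% counting intervals of the change from DMSO to 60 min. The ratio of SdhA to SdhB was 0.250 in DMSO, 0.356 at 15 min, 0.342 at 30 min and 0.520 at 60 min, a log2 change of 1.06 (0.96 to 1.16). The ratio of SdhA to SdhD went from 0.668 in DMSO to 1.77 at 60 min, from below to above 1. The ratio of the catalytic ATPsynbeta to the shaft ATPsyngamma was 0.458, 0.597, 0.619 and 0.878 in the order of the libraries, a log2 change of 0.94 (0.90 to 0.97). That of ND-75 to ND-23 was 0.238, 0.311, 0.345 and 0.485, a log2 change of 1.03 (0.93 to 1.13). In contrast, the ratio of UQCR-C2 to UQCR-C1, whose exon lengths are nearly equal, was 0.609 in DMSO and 0.613 at 60 min, a log2 change of 0.01 (-0.06 to 0.08). In each of the first 4 pairs the first gene has the longer exons, but the pairs were picked with their values known and say nothing general about length. ATPsyndelta, with the largest union of exons of the 63 genes, had a lower fold at 60 min than ATPsynbeta (-0.79 against -0.03). Part of that union was overlapped by CG2962, so this pair says nothing general about length either.

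**Figure D4:**
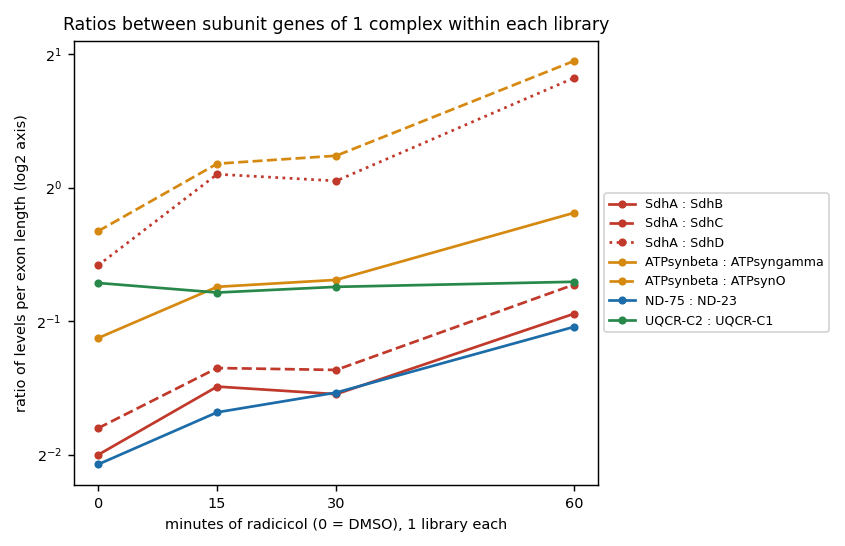
Ratio of the levels per exon length of pairs of subunit genes of 1 complex (vertical log2 axis) in each of the 4 libraries by minutes of radicicol (horizontal axis). SdhA and ATPsynbeta increase relative to their partners to 60 min, and UQCR-C2 relative to UQCR-C1 stays between 0.580 and 0.613. The relation of fold to exon length is not removed.

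Levels of different genes were compared per exon length, as counts per kb of exon, scaled to CPM over all measured genes with a length. In the DMSO library the 63 genes had a median of 253 on this scale, against 23.3 over all measured genes with a length. ATPsynC was highest with 1900.2, then ATPsyngamma with 1526 and COX5A with 937. ATPsynC forms a ring of many copies per enzyme, and ATPsyngamma is present once per enzyme. ATPsynCF6 with 927 and ATPsynO with 876 followed. Leaving out the paralogs, the median per complex in DMSO was 194 for complex I, 151 for complex II, 308 for complex III, 756 for complex IV and 610 for complex V. SdhA, with 60.7, was the lowest gene in complex II and lay below its partner SdhB, with 243. The lowest levels of all were those of UQCR-14L (4.05), COX5BL (4.12), ATPsynepsilonL (7.996) and ATPsynbetaL (9.70).

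**Figure D5:**
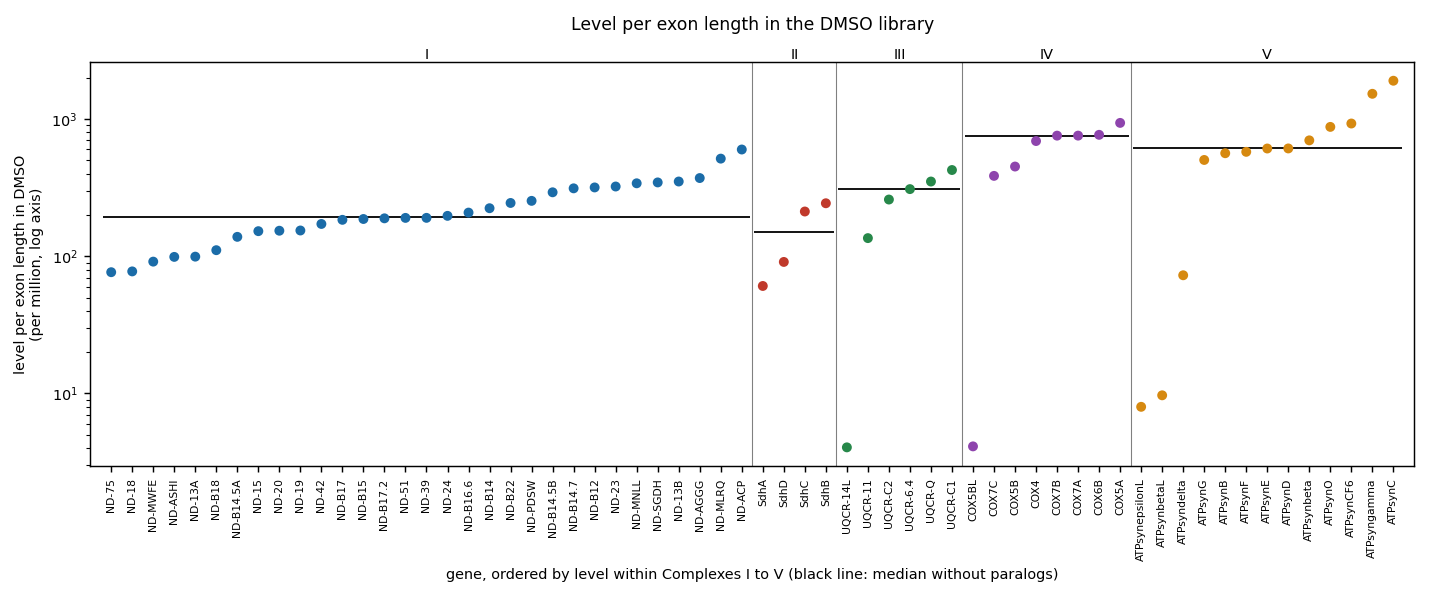
Level per exon length in the DMSO library (vertical log axis, counts per kb scaled to CPM) of 62 of the 63 genes, ordered by level within each complex (horizontal axis), with the median of all measured genes of each complex without paralogs as a black line. The medians of complexes IV and V lie above those of complexes I, II and III, and the 4 paralogs lie far below the other genes.

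Of the genes of the symbol rule in the files, 17 were not measured and had means of at most 7.5 counts. Of these, 15 are paralogs whose symbols end in L with or without a digit. The genes just below the minimum were ND-51L1 with a mean of 7.5 counts, COX4L with 7 and COX7AL with 6.25. Those just above it were UQCR-14L with 23.5, COX5BL with 42.5 and ATPsynepsilonL with 57.75. Many duplicated respiratory genes of the fly are known for expression in the testis. Of 7 testis markers dj, Mst87F, aly and comr had 0 counts in all 4 libraries and can had 2 reads in all. The other 2 were measured, betaTub85D with 172 to 203 counts per library and bb8 with 22 to 62. The remaining respiratory chain genes in the files that were not measured are ND-B8, with 1 to 3 counts per library, and UQCR-14. UQCR-14 had 0 counts in every library, and its exons are wholly overlapped by CG32576 on the other strand.

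The nuclear respiratory chain genes were set beside other gene lists of mitochondrial function at 60 min against DMSO. The share to set beside each list is that of all measured genes, of which 33.8% fell and 34.1% rose. With the length relation removed 26.6% of those with a length fell and 26.9% rose. Of 7 subunit genes whose symbols lie outside the rule, 6 fell and none rose, with a median log2 fold of -1.17. They include levy and cype of complex IV (-1.38 and -1.31), ox and the Rieske iron-sulphur protein RFeSP of complex III (-1.17 and -1.02), and sun, the epsilon subunit of ATP synthase (-1.30). Cyt-c1, the cytochrome of complex III, had -0.59 and fell as well, so that blw alone did not. All 10 assembly factors fell, with a median of -0.83. CIA30, which assembles complex I, was lowest with -1.32, and Ttc19, a factor of complex III, had -0.57. With the length relation removed 3 of the 7 subunit genes and 5 of the 10 assembly factors fell, and none rose. The medians were then -0.19 and -0.28.

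The TCA cycle and pyruvate dehydrogenase list went both ways, with 4 of 10 genes that fell and 5 that rose and a median log2 fold of 0.40. The genes furthest up were Ogdh, of the oxoglutarate dehydrogenase complex, with 1.59 (1.53 to 1.64) and Idh3a, of NAD-dependent isocitrate dehydrogenase, with 1.21 (1.10 to 1.31). The furthest down were Pdhb, of pyruvate dehydrogenase, with -0.84 and ScsbetaG, of succinyl-CoA synthetase, with -0.70. With the length relation removed Idh3a had 1.27 and Ogdh 0.54. Among 6 regulators of mitochondrial genes, 3 rose and 2 fell: srl, the fly homologue of the PGC-1 coactivators, had 1.09, ewg, the homologue of NRF-1, 1.14, and Hcf 1.42. With the length relation removed these 3 had 0.21, -0.19 and -0.07. TFAM, which packages mitochondrial DNA, fell, with -0.50, and had 0.08 with the length relation removed. On those terms 2 of the 6 regulators rose and none fell.

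Transcripts of the mitochondrial genome went both ways in these libraries of polyadenylated RNA. They supply the partner subunits, apart from the ribosomal RNAs mt:lrRNA and mt:srRNA, which were among those that fell. Of 14 measured, 5 fell and 1 rose, where 33.8% of all measured genes fell and 34.1% rose. The median log2 fold of the 14 was -0.08 at 60 min, against -0.02 over all measured genes. Corrected for exon length, 8 of the 14 rose (26.9% of all measured genes with a length) and 1 fell (26.6%), with a median of 0.59. The subunits of cytochrome c oxidase differed: mt:CoI had 1986 CPM in DMSO and 2574 at 60 min, mt:CoII had 1405 and 676, and mt:CoIII had 2013 and 1734. Only mt:CoII passed the slope test among them. Other housekeeping genes also fell in large numbers. Of 68 mitochondrial ribosomal protein genes 65 fell (median log2 fold -1.15), of 75 cytosolic ribosomal protein genes 73 fell (-1.14), and of 34 proteasome subunit genes 23 fell and 2 rose (-0.58). With the length relation removed the medians were -0.25, -0.33 and -0.07, beside -0.37 for the respiratory chain genes.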

How the data were processed

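The deposited tables hold whole, unnormalised counts of reads for each FlyBase gene, 1 table for each of the 4 libraries. Per the submitters' processing notes, Bowtie, HTSeq and the build dm3 were used; the sources used here give no versions, strand setting or annotation release. Symbols, exon and coding lengths and overlaps came from a later annotation (BDGP6), so no coordinates are printed, and no subunit or promoter sequences were analysed here. HTSeq entries that name no gene, of which unaligned reads took 17.8 to 44.1% of all entries, were left out.

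Counts were scaled by TMM with DMSO as the reference in edgeR 4.0.16 (R 4.3.3). A mean of at least 20 counts was required. Log2 folds have exact 95% Clopper-Pearson intervals, which cover counting error only, since reads are not independent molecules. Slopes over minutes used glmQLFit and glmQLFTest with 2 residual degrees of freedom. The relation of fold to length was removed by loess (span 0.5, pseudocount 0.5). DESeq2 1.42.0, other library sizes, filters, thresholds and left-out libraries were alternatives.

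The genes and lists were chosen with earlier results of these data known. Named genes are those past the rule of size, the 3 highest and 3 lowest per complex at 60 min, the 5 highest and lowest per exon length, complex I core and Sdh genes, the 5 lowest slope p-values in each direction, the 3 just above and below the minimum count, and of other lists the 2 highest and 2 lowest. Other genes named were chosen after their values were seen. 1 of the genes is counted in the totals but not reported here by itself.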

Additional observations from a re-analysis of the deposited data

How the results depend on the processing

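No paired analysis was possible because each condition has 1 library. Lowering the rule of size to a log2 fold of 0.5 gave 25 lower genes at 15 min, 28 at 30 min and 1 higher gene at 60 min, and any size with the interval on 1 side of 0 gave 58, 55 and 58 lower and 1, 1 and 3 higher genes at 15, 30 and 60 min. With total counts as library size, which moves all log2 folds by 0.16 at 15 min, the median was -0.31 at 15 min and -0.39 at 30 min. With totals without the 50 most abundant and the heat shock genes it was -0.36 at 15 min and -1.13 at 60 min. With the exon length relation removed the medians were -0.19, -0.18 and -0.37 at 15, 30 and 60 min, with 1 lower gene at 60 min, and with coding length, chosen after seeing the data, -0.18, -0.22 and -0.36, with 0. Leaving out each library in turn gave 32 to 56 genes that fell and 0 to 1 that rose, the lowest of both without 60 min. With exon length removed the median from 15 to 30 min changed sign (0.0098), as did 10 of the 63 slopes, 5 of them of genes that fell: COX7B (0.022), ND-18 (0.20), ND-MLRQ (0.0029), ND-ACP (0.03) and ND-B17.2 (0.08). With coding length removed 6 slopes changed sign, 2 of them of genes that fell, ATPsynC (0.035) and ND-MNLL (0.0039). ND-75, which did not pass, had a slope of -0.08 with exon length removed and of -0.25 with coding length removed, where it passed (adjusted p = 0.0438, edgeR). Their cause was not tested beyond the removal of length itself. DESeq2 gave 55 genes that fell. Depth limits UQCR-14L, COX5BL and ATPsynepsilonL, with at most 61 counts per library. Promoter motifs and protein identity were not run.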

Other observations

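The respiratory chain genes were spread over all chromosome arms, with 12 on 2L, 11 on 2R, 12 on 3L, 15 on 3R, 11 on X and 2 on chromosome 4. On the arms other than chromosome 4 the median at 60 min over all measured genes lay between -0.09 and -0.04 on the log2 scale, and that of the respiratory chain genes between -1.26 and -0.99. This was seen after the values were known and was not tested.

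Transport of metabolites across the mitochondrial membranes depends on carriers and a pore. Of 4 genes for mitochondrial carriers and the outer membrane pore none fell and 1 rose, where 33.8% of all measured genes fell and 34.1% rose. With the length relation removed 1 fell and 2 rose, where 26.6% and 26.9% of all measured genes with a length did. Mpcp2, a phosphate carrier, had 479 CPM in DMSO and 639 at 60 min (slope adjusted p = 0.0364, edgeR). The ADP/ATP carrier gene sesB had 833 and 1041 CPM (adjusted p = 0.0847, edgeR), and porin had 945 and 819 CPM (adjusted p = 0.308, edgeR).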
